A study of Mus musculus with 6 samples.

Results

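Matrix metalloproteases (MMPs), the membrane-bound ADAMs, the secreted ADAMTS proteases and their tissue inhibitors (TIMPs) were described in bEnd.3 cells, a mouse brain endothelial line immortalised with polyoma middle T antigen. Genes were taken by symbol (Mmp, Adam, Adamts or Timp followed by a number and, for Mmp and Adam, an optional a or b), which gave 58 of the 30077 genes in the deposited table: 19 Mmp, 19 Adam, 16 Adamts and 4 Timp genes. The mitochondria group (3 libraries) was given mitochondria taken from the MLO-Y4 line of mouse osteocyte-like cells, in 100 µl of culture medium. The control group (3 libraries) received the same volume of medium alone. Both groups were wild type, were grown in high-glucose medium with serum, and were collected after 24 h. Both are a single established line in culture. The labels do not state whether libraries of 1 group were separate cultures, so a p-value here reflects the spread between these particular libraries alone, which may be technical.

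MMPs are zinc-dependent proteases, made as inactive precursors, that cut collagens, laminins and other matrix proteins. Most act after secretion, and a membrane-type subgroup acts at the cell surface. ADAMs are anchored in the membrane and release the outer parts of receptors, ligands and adhesion proteins, while ADAMTS proteases are secreted and cut proteoglycans, procollagens or von Willebrand factor. TIMPs block the active site of these enzymes, and in brain endothelium the balance between proteases and inhibitors is known for its effect on the basement membrane and on the barrier.

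Totals were 59651087 to 63581460 counts in the mitochondria libraries and 64609635 to 65576084 in the controls. All 10 endothelial markers examined were present, at mean FPKM (fragments scaled to gene length and library size) of 14.5 for Tek to 338 for Cdh5. The 4 osteocyte markers analysed had mean FPKM of 0.00442 to 0.0186, with sums of 0.00712 to 0.0882 in mitochondria libraries and 0.0167 to 0.0630 in controls. Reads of the 18S ribosomal RNA locus CT010467 and of Lars2 made up 4.38% to 7.94% of the counts in mitochondria libraries and 1.74% to 3.56% in controls. The test was edgeR's quasi-likelihood test, run on genes that reached 1 FPKM in 3 or more of 6 libraries, and a gene was called at a Benjamini-Hochberg adjusted p under 0.05 over all 11255 tested genes. Of these, 2.09% were called, 0.986% higher and 1.10% lower in mitochondria libraries. Genes that were higher made up 47.2% of the calls, against 17.3% with scaling by library totals alone, 17.9% in limma on log2(FPKM + 1) and 6.10% in limma on log2(TPM + 1). In those 3 fits the median log2 fold change of all genes was −0.05, −0.05 and −0.15, against 0.00109 in edgeR with TMM scaling.

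Per length, the cells held more inhibitor than protease message, and the inhibitor Timp2 was the 1 member called. Timp2 rose by 0.25 on the log2 scale. No Mmp, Adam or Adamts gene passed the test. Of the 58 members 23 were tested and 1 of them was called (4.35%, beside 2.09% of all tested genes). The other 35 stayed under the filter, with mean FPKM of 0.811 or less, and 3 of those, Mmp21, Adam33 and Adamts19, had no count in any library. Among the 23 tested members 12 log2 fold changes were above 0 and 11 below, with a median of 0.00503. At an unadjusted p under 0.05 in edgeR there were 5 of the 23 members, beside 16.1% of all tested genes. The 5 were Timp2, Adam12, Adam19, Adamts4 and Adamts6. DESeq2 called 3 members (Timp2 and Adamts4 higher, Adamts6 lower), where it called 5.31% of the 11253 genes it gave an adjusted p, and limma on log2(FPKM + 1) called none.

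**Figure D1:**
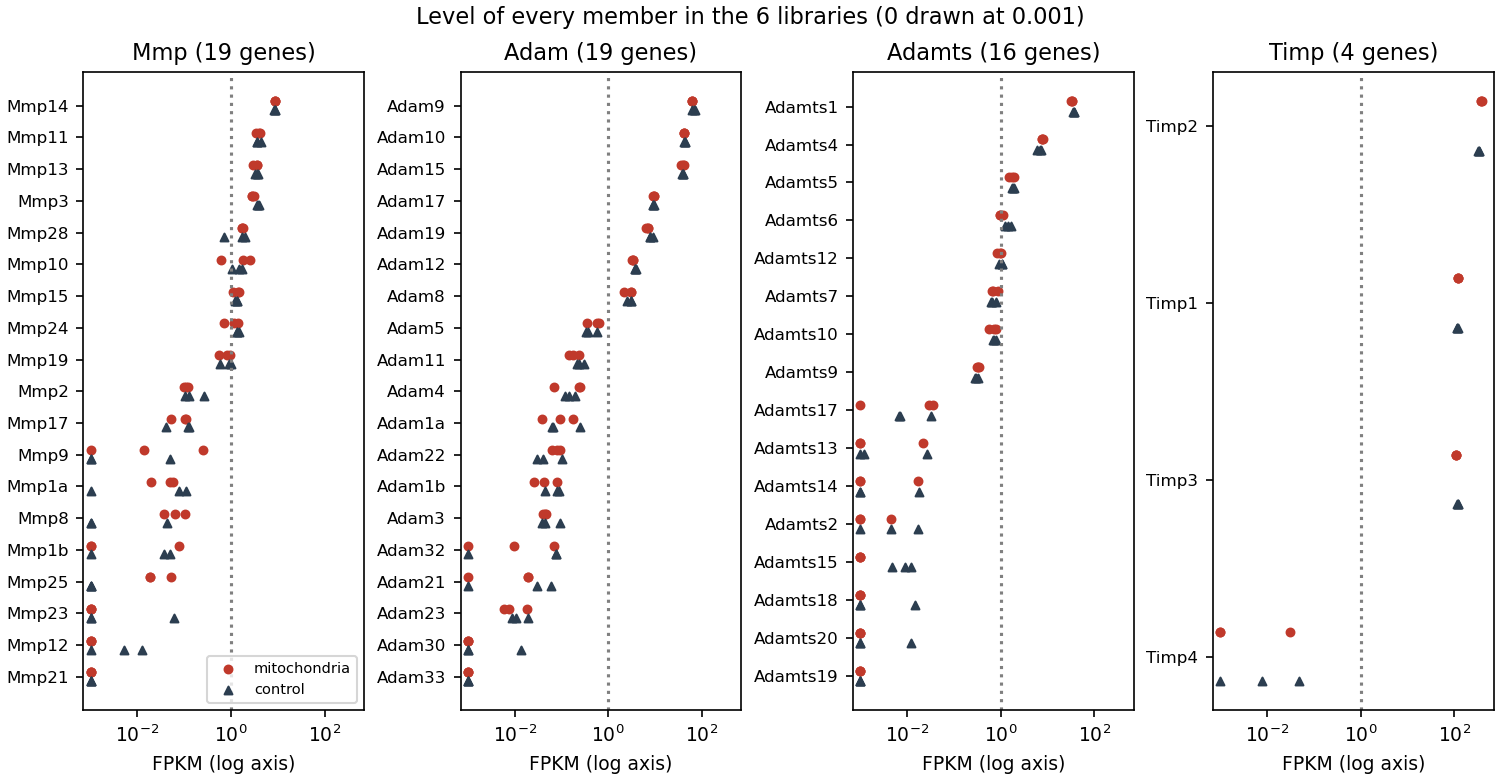
Level of each of the 58 members (rows) in FPKM on a logarithmic axis, by family, with 1 point per library (red circles, mitochondria; dark triangles, control; a listed value of 0 is drawn at 0.001; the dotted line marks 1 FPKM). Timp1, Timp2 and Timp3 lie above 100 FPKM in every library, Mmp14 is the highest Mmp gene at 8.74 FPKM on average, and 26 members average under 0.1 FPKM.

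TIMP2 and TIMP3 are broadly acting inhibitors. Timp2 (ENSMUSG00000017466, GRCm38 chromosome 11: 118301069 to 118355740, minus strand) encodes the inhibitor that also bridges the membrane protease MMP14 to the precursor of MMP2, and it limits endothelial growth. Timp2 was present at 393, 369.7 and 379 FPKM in mitochondria libraries 1 to 3, against 327, 332 and 342 FPKM in controls 1 to 3. The groups did not overlap. In CPM (counts scaled to library size with edgeR's TMM factors, with no length scaling) it held 1741, 1713 and 1721 with mitochondria, against 1437, 1419.8 and 1499.9 in controls. The log2 fold change was 0.25 (SE 0.03; adjusted p = 0.0011 in edgeR; means of 1725 ± 14.3 CPM with mitochondria and 1452 ± 42.3 CPM in controls, SD, n = 3 each), which is a rise of 18.8%. With each library left out in turn it was called in 6 of 6 fits, at 0.23 to 0.27. It was not called in limma on log2(FPKM + 1) (0.19, adjusted p = 0.0886) or on log2(TPM + 1) (0.09, adjusted p = 0.297), nor without a filter (0.25, adjusted p = 0.057), nor with the ribosomal share as a covariate (0.23, SE 0.05, adjusted p = 0.356). Its distance above the median of all genes was 0.23 to 0.27 on the log2 scale in every one of these fits, TPM included. The ribosomal share was higher in every mitochondria library than in every control. The covariate fit therefore cannot separate that share from the group, for Timp2 or for any other gene.

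Marker and overlap values stood beside the Timp2 rise. Of 5 macrophage markers 1 reached a mean of 1 FPKM, and their summed FPKM was 49.8 to 58.1 in mitochondria libraries and 36.9 to 38.9 in controls. Nearly all of it was Cd68, a lysosomal membrane protein gene, while Ptprc, Adgre1, Aif1 and Csf1r had mean FPKM of 0.00235, 0.00482, 0.0181 and 0.156. Of 7 mural and fibroblast markers 2 reached a mean of 1 FPKM, and their sums were 2.77 to 9.76 FPKM with mitochondria and 4.40 to 7.07 FPKM in controls, and the 2 astrocyte markers analysed summed to at most 0.0830 FPKM in any library. Their part in the result was not tested. In such bulk libraries a change in the number of cells of a kind and a change in RNA per cell cannot be told apart. Cep295nl lies inside Timp2 on the same strand, and it held 227 to 328 counts with mitochondria and 241 to 255 in controls, where Timp2 held 98156 to 110098 with mitochondria and 93304 to 97160 in controls.

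The proximal promoter of Timp2, the member that was called, is given here in RefSeq's sequence (GRCm38.p6, chr11:118355362-118355561, minus strand, from base −150 to base 50 around RefSeq's start at 118355411). That start lies 329 bases inside the gene as the deposited table bounds it. The letters GGGCGG, the core of a GC box, are in capitals.
Timp2: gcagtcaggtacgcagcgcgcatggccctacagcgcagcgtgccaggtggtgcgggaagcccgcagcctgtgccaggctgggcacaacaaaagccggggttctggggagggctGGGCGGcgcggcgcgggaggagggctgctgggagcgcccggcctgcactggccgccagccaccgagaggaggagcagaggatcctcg
Searched on both strands, GGGCGG occurred in the promoter windows of 3 of the 4 Timp genes (Timp1, Timp2 and Timp3), and in 35.66% of all 32851 windows of the same length (250 bases before to 50 after a start). Neither TATAAA nor TGANTCA was found in any Timp window. No match of 1 motif overlapped a match of another. TGANTCA was chosen with earlier results of these data known, whereas the other two were chosen after the promoters had been seen.

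Timp1, a secreted inhibitor also known to act as a growth factor, stood at 118, 120.3 and 120.1 FPKM with mitochondria, against 119, 117 and 116 FPKM in controls. The ranges of its CPM overlapped, at 119, 127 and 124 with mitochondria against 119, 114 and 115 in controls. Its log2 fold change was 0.09 (SE 0.04, adjusted p = 0.32 in edgeR), and −0.07 with TPM. Timp3, the inhibitor that is held in the matrix and also blocks ADAM17 and ADAMTS proteases, had 111, 110.3 and 110.3 FPKM with mitochondria, against 119.8, 122 and 117 FPKM in controls. All mitochondria libraries lay below all controls for Timp3, with 1024, 1069 and 1048 CPM with mitochondria against 1100.5, 1093 and 1073 CPM in controls, and the log2 fold change was −0.06 (SE 0.03, adjusted p = 0.365 in edgeR). Timp4, an inhibitor best known from heart and brain, held 0, 0 and 13 counts with mitochondria and 4, 21 and 0 counts in controls. These are too few to compare. Timp1, Timp3 and Timp4 lie within or overlap the synapsin genes Syn1, Syn3 and Syn2 on the other strand, which held at most 135, 195 and 517 counts. Whether counting used strand is not given in the sources used here.

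Within the Timp family the shares of the 3 abundant members did not overlap between groups. Timp2 made up 61.6% to 63.2% of the summed Timp FPKM with mitochondria and 57.8% to 59.5% in controls. Timp3 made up 17.8% to 18.4% with mitochondria and 20.4% to 21.4% in controls, and Timp1 19.0% to 20.04% with mitochondria and 20.1% to 21.03% in controls. These shares do not depend on how a library is scaled. Within a library they add up to the whole, so a larger share of Timp2 makes the other shares smaller. The 3 are therefore not separate results, and the share of Timp1 was lower although its log2 fold change in edgeR was 0.09. The shares are given as a description with no test.

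Summed FPKM per family shows how unequal inhibitors and proteases were. The 4 Timp genes together reached 622, 600.3 and 609 FPKM with mitochondria, against 566, 572 and 575 FPKM in controls. The 19 Mmp genes together reached 26.5, 25.6 and 26.3 FPKM with mitochondria, against 26.6, 28.3 and 25.4 FPKM in controls. The ratio of Timp to Mmp FPKM was 23.5, 23.5 and 23.2 in mitochondria libraries and 21.3, 20.2 and 22.6 in controls. It was higher in each mitochondria library than in each control. From CPM, with no length scaling, the same ratio was 24.4, 23.5 and 23.8 with mitochondria and 22.5, 21.7 and 23.6 in controls, and there the groups overlapped. Summed Timp TPM was 2101 ± 83.0 with mitochondria and 2102 ± 60.2 in controls (SD, n = 3 each), so the higher sum in FPKM was absent on that scale. Summed Adam FPKM was 166 ± 1.83 with mitochondria and 174 ± 5.36 in controls, and summed Adamts FPKM 45.8 ± 1.49 with mitochondria and 49.2 ± 1.45 in controls.

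Of the 19 Mmp genes 8 were tested and none was called. None had an unadjusted p under 0.05 in edgeR, and neither DESeq2 nor limma on FPKM or TPM called one. Mmp14, the membrane-type collagenase that activates MMP2 together with TIMP2, was the highest. It stood at 8.79, 8.81 and 8.79 FPKM with mitochondria and 8.46, 8.79 and 8.80 FPKM in controls, values that overlap. In CPM the groups were apart by a little, at 59.6, 62.5 and 61.2 with mitochondria and 56.9, 57.5 and 59.0 in controls. The log2 fold change was 0.08 (SE 0.05, 95% interval −0.02 to 0.18, adjusted p = 0.442 in edgeR), and −0.08 with TPM. Mmp2 and Mmp9, the gelatinases most often studied at the blood-brain barrier, were far under the filter. Mmp2 held 24, 28 and 26 counts with mitochondria and 31, 67 and 26 in controls. Mmp9 held 0, 63 and 4 counts with mitochondria and 13, 0 and 0 in controls, so mitochondria library 2 alone supplied most of its counts.

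The secreted MMPs with a level above the filter were mostly the stromelysins and a collagenase of the chromosome 9 cluster. That cluster holds 7 members within 295972 bases (GRCm38 chromosome 9: 7272514 to 7568485), in the order Mmp13, Mmp12, Mmp1b, Mmp3, Mmp1a, Mmp10 and Mmp8. Only Mmp13 (collagenase 3), Mmp3 (stromelysin 1) and Mmp10 (stromelysin 2) passed the filter, with mean FPKM of 3.46, 3.37 and 1.54. The other 4 had mean FPKM of 0.00299 (Mmp12) to 0.0528 (Mmp1a). The promoters of the 3 that passed are given from base −100 to base 20 around the RefSeq start (GRCm38.p6, plus strand), because they hold the same motifs near the start of neighbouring genes. Capitals mark the core of an AP-1 site, spelled TGANTCA and the same on both strands. They also mark the letters of a TATA-type box, TATAAA. The stretches are chr9:7445722-7445841 for Mmp3, chr9:7502242-7502361 for Mmp10 and chr9:7272414-7272533 for Mmp13.
Mmp3: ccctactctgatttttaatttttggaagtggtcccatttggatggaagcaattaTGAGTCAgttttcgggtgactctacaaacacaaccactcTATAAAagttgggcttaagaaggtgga
Mmp10: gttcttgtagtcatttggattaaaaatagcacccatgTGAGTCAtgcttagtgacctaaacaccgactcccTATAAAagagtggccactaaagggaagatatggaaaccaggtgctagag
Mmp13: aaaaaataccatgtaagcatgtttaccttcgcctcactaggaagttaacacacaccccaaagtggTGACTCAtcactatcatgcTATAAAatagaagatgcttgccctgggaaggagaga
TGANTCA began at base −46 in Mmp3, −63 in Mmp10 and −35 in Mmp13. It was found in the windows of 6 of the 7 cluster genes, all but Mmp8, and in 7.81% of all 32851 windows. TATAAA, searched on both strands, was found for all 7 cluster genes, and in 13.62% of all windows. Its place varied. It began at base −7 in Mmp3, −29 in Mmp10, −16 in Mmp13, −28 in Mmp1a and −49 in Mmp1b. In Mmp12 it began at base 5, after the start, and the match in Mmp8, at base −3, was on the other strand. GGGCGG was found for none of the 7. Of the 38 members with a RefSeq window, 8 held TGANTCA, the other two being Adam19 and Adam1b. A match describes letters only and says nothing of binding.

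Mmp3 held 6.52, 6.18 and 6.03 CPM with mitochondria, against 7.24, 7.90 and 7.64 CPM in controls. Every mitochondria library lay below every control. The log2 fold change was −0.28 (SE 0.13, 95% interval −0.57 to 0.00899, adjusted p = 0.327 in edgeR), so the gene did not pass. Mmp13 was at 10.97, 11.3 and 9.13 CPM with mitochondria and 9.79, 11.2 and 10.9 CPM in controls, fully overlapping (−0.02, SE 0.13, adjusted p = 0.951 in edgeR). Mmp10 varied most between libraries, at 3.53, 1.26 and 5.07 CPM with mitochondria and 2.94, 3.29 and 2.07 CPM in controls. Mitochondria libraries 2 and 3 held its lowest and highest value, and its interval ran from −0.60 to 1.10 around 0.25. Without mitochondria library 3 the estimate was −0.21.

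Among the other tested MMPs, Mmp11 (stromelysin 3) had 13.3, 13.3 and 11.2 CPM with mitochondria and 13.5, 11.01 and 11.4 CPM in controls, and the groups overlapped. Mmp28, epilysin, had 7.62, 7.84 and 8.40 CPM with mitochondria and 7.53, 8.57 and 3.18 CPM in controls. Control library 3 stood well below the other 5, and without it the log2 fold change was −0.02, against 0.31 (SE 0.28) with it. Mmp24, a membrane-type MMP best known from neurons, had 3.89, 7.75 and 6.32 CPM with mitochondria and 7.21, 7.57 and 7.18 CPM in controls, and mitochondria library 1 was the low one. Mmp15, another membrane-type MMP, overlapped at 7.17 to 9.04 CPM with mitochondria and 7.56 to 8.30 CPM in controls. Mmp24 overlaps BC029722 on the other strand, which held 2993 to 3549 counts with mitochondria and 3101 to 3533 in controls.

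Under the filter, Mmp19 came closest, with 0.548 to 0.964 FPKM with mitochondria and 0.595 to 0.994 FPKM in controls. Mmp25, a membrane-type MMP known from neutrophils, held 8, 19 and 7 counts with mitochondria and none in any control. Its counts summed over the mitochondria libraries, set against a floor of 3 counts over the control group, gave a ratio of 12.0. That ratio takes no account of the spread between libraries and is not a lower bound. In edgeR without a filter its adjusted p was 0.371 (unadjusted p = 0.007). Adamts15 showed the opposite, with no count in any mitochondria library and 4, 10 and 7 counts in controls. With the same floor over the mitochondria group, its ratio of controls to mitochondria was 6.60, with the same limit. In edgeR without a filter the adjusted p of Adamts15 was 0.494. Neither passed adjustment. Among 16396 genes under the filter with any count, 136 had at least 20 counts in mitochondria libraries together and none in controls, and 152 had the reverse. Mmp8, the neutrophil collagenase, held 12, 18 and 7 counts with mitochondria and 0, 8 and 0 in controls, and the groups overlapped.

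**Figure D2:**
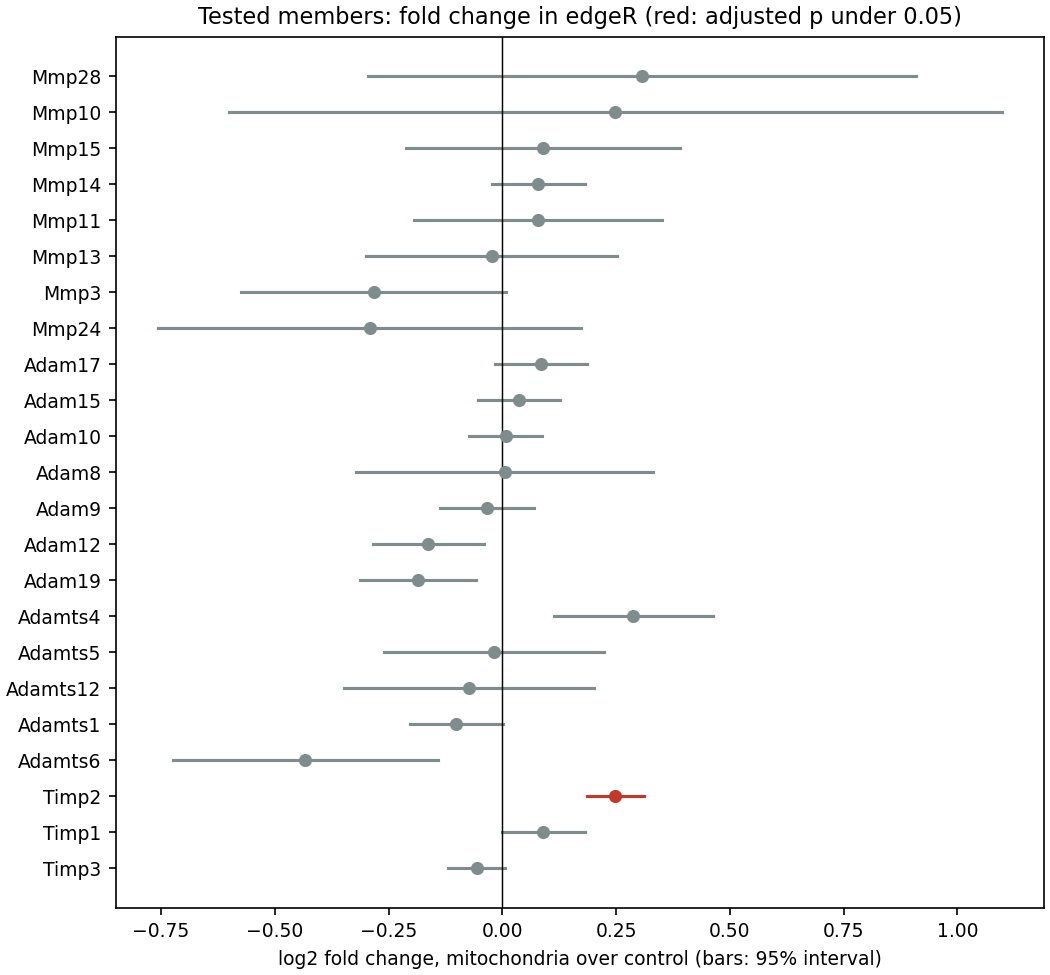
Log2 fold change of mitochondria over control for the 23 tested members, by family, with bars for the 95% interval from edgeR. Timp2 is the one called at an adjusted p under 0.05 (red), and the bars of Adam12, Adam19, Adamts4 and Adamts6 also lie to one side of 0 without passing adjustment.

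Of the 19 Adam genes 7 were tested and none was called in edgeR. There were 2 with an unadjusted p under 0.05 (beside 16.1% of all tested genes), and neither DESeq2 nor limma on FPKM or TPM called one. Adam10, the protease that cuts Notch receptors, VE-cadherin and the amyloid precursor, had 231, 243 and 239.9 CPM with mitochondria and 235, 234 and 242 CPM in controls. Its log2 fold change was 0.00716 (SE 0.04, 95% interval −0.07 to 0.09, adjusted p = 0.948 in edgeR). Adam17, the enzyme that releases tumour necrosis factor and ligands of the epidermal growth factor receptor, had 79.5, 79.2 and 74.8 CPM with mitochondria and 72.8, 75.7 and 71.5 CPM in controls. Mitochondria library 3 fell inside the control range (0.09, SE 0.05, 95% interval −0.02 to 0.19, adjusted p = 0.405 in edgeR; −0.07 with TPM). Iah1, on the other strand over Adam17, held 654 to 746 counts with mitochondria and 638 to 767 in controls.

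Adam9 and Adam15 were with Adam10 the most abundant of the family, at mean FPKM of 64.3, 39.1 and 42.4. Adam9, a sheddase found in most cells, had 285, 307 and 301 CPM with mitochondria and 283, 317 and 314 CPM in controls, so the ranges overlapped. Adam15, which carries an integrin-binding motif and is known from endothelial junctions, overlapped at 264 to 286 CPM with mitochondria and 260.2 to 278 CPM in controls. The 95% intervals were −0.14 to 0.07 for Adam9 and −0.05 to 0.13 for Adam15. Adam8, known from leukocytes, was at 11.4, 16.9 and 16.3 CPM with mitochondria and 15.9, 15.5 and 13.1 CPM in controls, a wider spread (0.00503 on the log2 scale, with an SE of 0.15 and an adjusted p = 0.993 in edgeR).

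Adam19 and Adam12, the meltrins beta and alpha known from muscle and heart development, were the 2 Adam genes whose groups stood apart. That is 2 of 7 tested Adam genes, beside 21.1% of all tested genes with no overlap in CPM. Adam19 had 56.4, 55.4 and 59.6 CPM with mitochondria, against 61.4, 69.9 and 63.6 CPM in controls. All 3 mitochondria libraries lay below all controls, and control 2 was the highest. The log2 fold change was −0.19 (SE 0.06, unadjusted p = 0.00788, adjusted p = 0.143 in edgeR). Adam12 had 40.1, 41.9 and 40.2 CPM with mitochondria, against 45.5, 44.1 and 47.1 CPM in controls (−0.16, SE 0.06, adjusted p = 0.183 in edgeR). Neither gene was called in any other fit that held it, and both stayed below 0 in each. The 12 Adam genes under the filter included Adam5, Adam3, Adam32 and Adam4, known from testis, with at most 0.635 FPKM in any library.

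Of the 16 Adamts genes 5 were tested and none was called in edgeR, while 2 had an unadjusted p under 0.05 (beside 16.1% of all tested genes) and DESeq2 called those 2 (beside 5.31%). Adamts4, an aggrecan- and versican-cutting protease, had 41.1, 45.1 and 43.6 CPM with mitochondria, against 39.2, 35.6 and 31.6 CPM in controls. Each mitochondria library lay above each control. The log2 fold change was 0.29 (SE 0.08; adjusted p = 0.0995 in edgeR, adjusted p = 0.0195 in DESeq2).

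Adamts6, a relative of Adamts10, had 8.79, 8.74 and 10.1 CPM with mitochondria, against 10.7, 14.2 and 12.5 CPM in controls. The groups did not overlap, and the log2 fold change was −0.43 (SE 0.13; adjusted p = 0.137 in edgeR, adjusted p = 0.0455 in DESeq2). In FPKM it had 0.986, 0.940 and 1.11 with mitochondria, against 1.22, 1.65 and 1.42 in controls. It thus met the filter through the controls, where it was higher, so its direction is not independent of the filter. Without a filter its adjusted p was 0.415 in edgeR. Adamts1, a proteoglycan-cutting protease with antiangiogenic activity, was the most abundant of the family and took 70.5% to 71.7% of summed Adamts FPKM with mitochondria and 74.0% to 74.7% in controls. It had 187, 211 and 207 CPM with mitochondria, against 223, 214 and 212 CPM in controls. Mitochondria library 1 was the lowest, and the other two mitochondria libraries lay just under the controls. The log2 fold change was −0.10 (SE 0.05, adjusted p = 0.315 in edgeR), and limma on log2(TPM + 1) called it (−0.26, adjusted p = 0.0483). That limma fit called 20 genes higher and 308 lower of 11255, and its median over all genes was −0.15. Adamts5, another aggrecanase, had 18.3, 24.8 and 21.7 CPM with mitochondria and 21.4, 21.5 and 22.7 CPM in controls, and Adamts12 had 10.7 to 13.3 CPM with mitochondria and 11.1 to 13.4 CPM in controls. Both overlapped. Of the 11 Adamts genes under the filter, Adamts7 and Adamts10 came closest, at 0.551 to 0.865 FPKM with mitochondria and 0.610 to 0.795 FPKM in controls, and Adamts13, which cuts von Willebrand factor, held at most 10 counts.

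**Figure D3:**
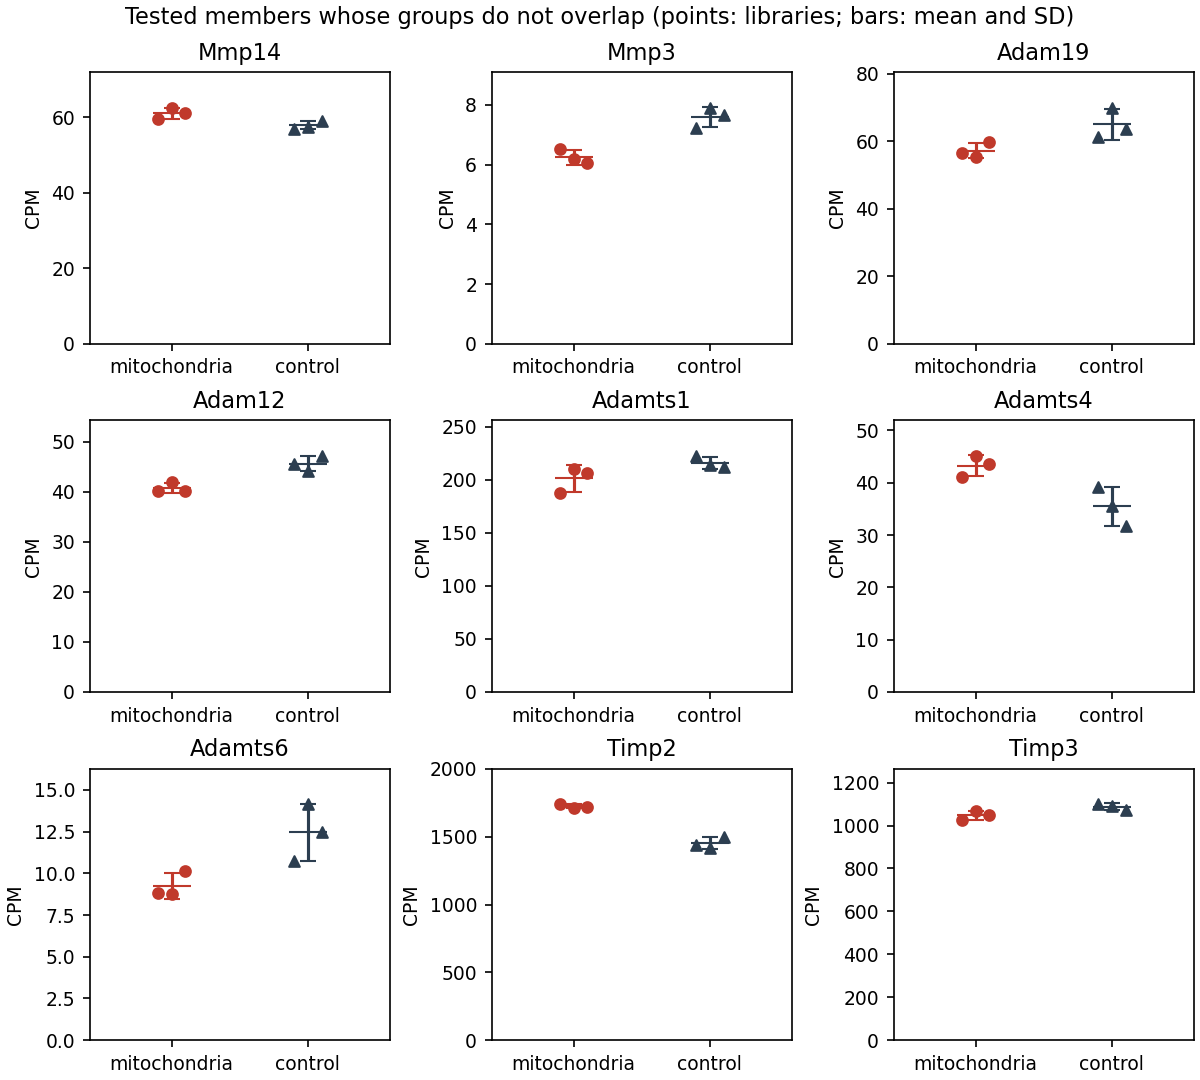
CPM of the 9 tested members whose groups do not overlap, with 1 point per library and the mean and SD of 3 libraries (mitochondria left, control right; axes start at 0). Timp2, Adamts4 and Mmp14 are higher with mitochondria and the other 6 are lower, with a log2 fold change of −0.43 for Adamts6 and 0.29 for Adamts4 at the ends of their range.

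Over all 23 tested members, 9 had groups that did not overlap in CPM, 3 higher and 6 lower. Among all tested genes this held for 2372 (21.1%), of which 1134 (10.1% of the tested genes) were higher and 1238 lower. The 6 lower members were Timp3, Adam19, Adam12, Adamts1, Adamts6 and Mmp3. Of these, Adamts6 had met the filter through the controls. The 9 log2 fold changes ran from −0.43 (Adamts6) to 0.29 (Adamts4), and none but that of Timp2 passed adjustment in edgeR.

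**Figure D4:**
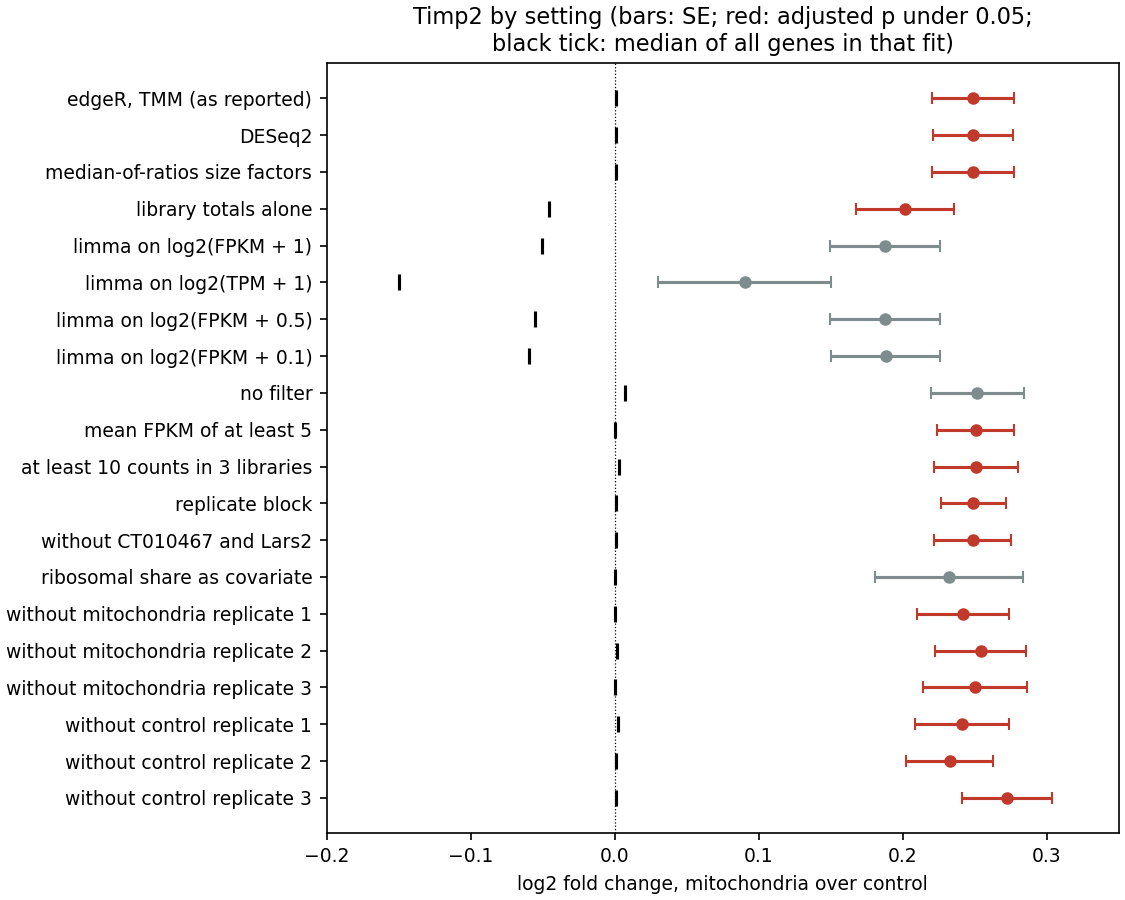
Log2 fold change of Timp2, mitochondria over control, in the reported fit and 19 other fits (rows), with SE bars, red where the adjusted p was under 0.05, and a black tick at the median of all genes in that fit. The estimate lies between 0.09 and 0.27. It is lowest with library totals alone and in limma, the fits whose median is below 0, as with TPM at −0.15.

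Genes that work with these proteases were read from the same fit, in 9 lists that hold 100 genes of the table. Of these 56 were tested, none rose and 2 fell (beside 2.09% of all tested genes called), with a median log2 fold change of 0.00735. The 2 that fell were Hbegf and Tll1. At an unadjusted p under 0.05 there were 12 of the 56 (21.4%, beside 16.1% of all tested genes), and DESeq2 called 2 higher and 3 lower, beside 5.31% of all genes it gave an adjusted p.

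Membrane proteins known as substrates of ADAM10 or ADAM17 made up the longest list, with 18 of 24 tested, 1 lower and none higher (beside 2.09% of all tested genes called). At an unadjusted p under 0.05 in edgeR there were 6 of the 18 (33.3%, beside 16.1% of all tested genes). DESeq2 called 2 higher and 2 lower, beside 5.31% of all genes it gave an adjusted p. Hbegf, a heparin-binding ligand of the epidermal growth factor receptor that ADAM17 releases, had 78.7, 88.4 and 84.3 CPM with mitochondria, against 96.4, 97.4 and 97.5 CPM in controls. Its groups did not overlap, and it fell by 0.21 on the log2 scale (SE 0.05, adjusted p = 0.0445 in edgeR). With a library left out it was called only without mitochondria library 2, and it was not called in limma on log2(FPKM + 1) (adjusted p = 0.0635). It was also not called in edgeR without a filter (adjusted p = 0.225), with at least 10 counts in 3 libraries (adjusted p = 0.0763) or with the ribosomal share as a covariate (adjusted p = 0.65). The adjusted p in edgeR was 0.105 to 0.157 without control 1, 2 or 3 and 0.112 and 0.14 without mitochondria 1 or 3. Ereg, another such ligand, was at −0.21 (SE 0.05, adjusted p = 0.0758 in edgeR), the receptor gene Tnfrsf1a at 0.18 (SE 0.05, adjusted p = 0.0855) and Il6st, the shared receptor of the interleukin 6 family, at 0.12 (SE 0.04, adjusted p = 0.147). DESeq2 called these 3 as well. Tek at 0.22 (SE 0.08, adjusted p = 0.203 in edgeR) and Pecam1 at 0.07 (SE 0.03, adjusted p = 0.227 in edgeR) also had an unadjusted p under 0.05. Cdh5, which encodes VE-cadherin, was at 1620 ± 35.4 CPM with mitochondria and 1616 ± 12.7 CPM in controls (SD, n = 3 each).

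None of the 6 tested partners of ADAM10 and ADAM17 was called, and none had an unadjusted p under 0.05 or a DESeq2 call. Tspan14, a tetraspanin that directs ADAM10, was the most abundant per length, at 74.2 ± 1.31 CPM with mitochondria and 71.1 ± 2.64 CPM in controls, and Rhbdf1 and Rhbdf2, the iRhoms that carry ADAM17 to the surface, were at −0.01 and 0.00723 on the log2 scale. In the plasminogen system, which feeds into MMP activation, none of 5 tested genes was called by edgeR or DESeq2 and none had an unadjusted p under 0.05. The plasminogen activator gene Plau was at 419 ± 26.4 CPM with mitochondria and 404 ± 20.7 CPM in controls. Furin, a convertase that removes the inhibitory part of many ADAMs and membrane-type MMPs, was at −0.05 (SE 0.04). None of 3 tested convertases was called, and 1 had an unadjusted p under 0.05 in edgeR (beside 16.1% of all tested genes). Of the further inhibitors, the membrane-anchored Reck was at −0.19 (SE 0.12), and Bsg, the MMP inducer basigin, at 0.08 (SE 0.03). Neither was called, and Bsg alone had an unadjusted p under 0.05 in edgeR (beside 16.1% of all tested genes).

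Among other metalloproteases and their enhancers 1 of 4 tested genes was called (beside 2.09% of all tested genes). Tll1, a tolloid-like protease that processes procollagens and chordin, had 31.7, 34.5 and 28.3 CPM with mitochondria, against 47.2, 45.9 and 42.6 CPM in controls, and fell by 0.52 (SE 0.08, adjusted p = 0.0071 in edgeR). The groups lay well apart, and the call held in 6 of 6 fits without a library, but not in limma on log2(FPKM + 1) (adjusted p = 0.0518), without a filter (adjusted p = 0.0927) or with the ribosomal share as a covariate (adjusted p = 0.511). Its relative Bmp1 was at 97.8 ± 5.13 CPM with mitochondria and 98.7 ± 4.02 CPM in controls, and Ece1, an endothelin-converting enzyme, was at 0.04 (SE 0.04). None of 3 ADAMTS-like or cofactor genes and none of 3 secreted ADAMTS substrates was called by edgeR or DESeq2. In each list 1 had an unadjusted p under 0.05 in edgeR (beside 16.1% of all tested genes). Adamtsl4 had 6.39, 6.72 and 7.32 CPM with mitochondria, against 5.05, 4.96 and 5.37 CPM in controls, with no overlap (0.41, SE 0.15, unadjusted p = 0.0157, adjusted p = 0.195 in edgeR). Adamtsl5 was at −0.05 (SE 0.13), Nid1, a basement membrane protein cut by ADAMTS1, at 0.05 (SE 0.02), and Vcan, the ADAMTS substrate versican, at −0.25 (SE 0.09, adjusted p = 0.214 in edgeR). Of 12 tested AP-1, ETS and RUNX factors, none was called by edgeR or DESeq2, with a median of −0.06. An unadjusted p under 0.05 in edgeR was found for 1 (beside 16.1% of all tested genes). The most abundant, Fosl2, was at 629 ± 19.1 CPM with mitochondria and 668 ± 13.3 CPM in controls (−0.09, SE 0.03, adjusted p = 0.217 in edgeR).

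**Figure D5:**
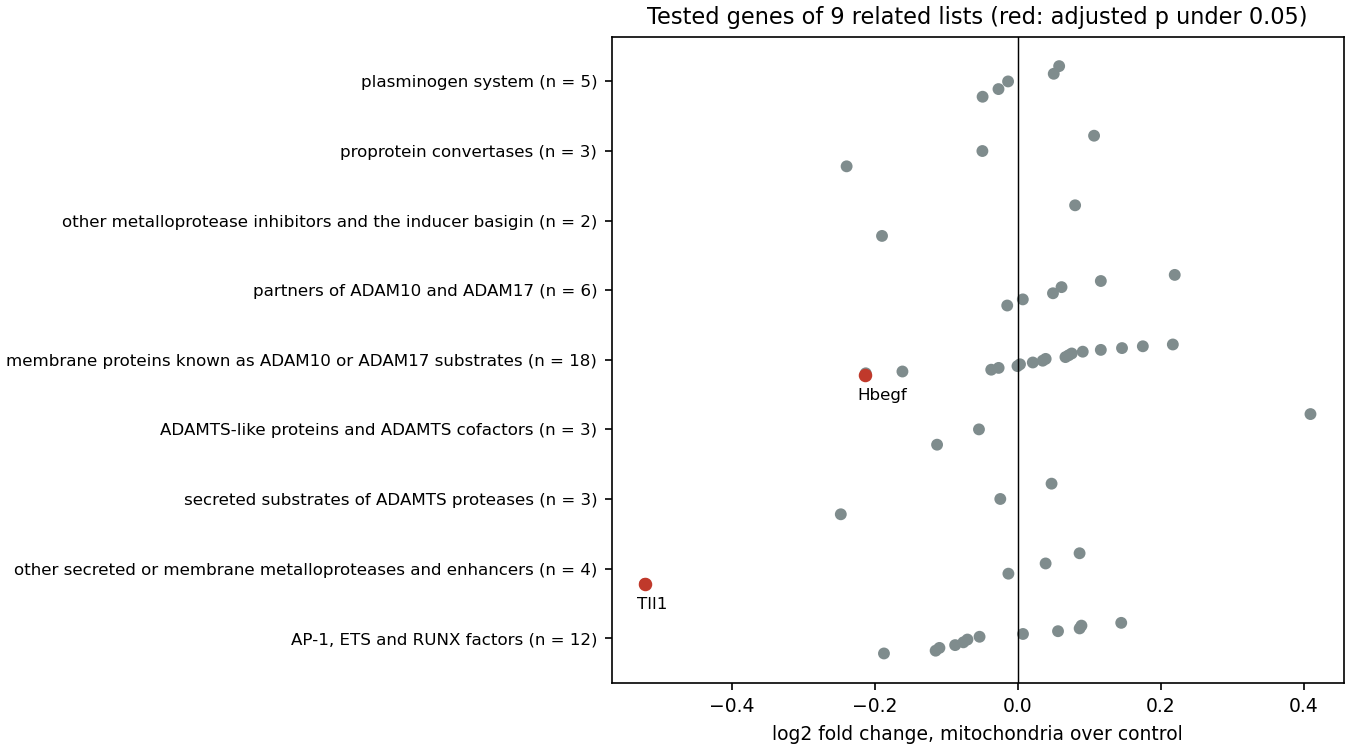
Log2 fold change of mitochondria over control for the 56 tested genes of the 9 related lists (rows; the number tested is given), 1 point per gene, red where the adjusted p was under 0.05 in edgeR. Hbegf and Tll1 are the 2 called genes, both lower, and the other points lie between −0.25 and 0.41.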

How the data were processed

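The deposited table gives raw counts and FPKM per gene and library, per the file headers. The submitters' processing notes name cutadapt 1.9, HISAT2 2.2.1, StringTie 2.1.6, DESeq2, edgeR and GRCm38; the sources used here do not give the role of each, nor how strand and shared reads were treated. Per the labels, the mRNA kit was stranded. The whole table was fitted with edgeR 4.0.16 (R 4.3.3; quasi-likelihood, TMM, two-sided) on the deposited counts. DESeq2 1.42.0 and limma 3.58.1 on the authors' deposited FPKM were alternatives, beside other scalings, filters, covariates and left-out libraries. The SE is the log2 fold change over the root of the F statistic, and 95% intervals use t with 11.8 degrees of freedom. TPM was made from FPKM. Same-group libraries differed by more than counting noise (chi-square per gene of 15.1 to 83.1) and were kept apart. The fit was tried on simulated data. It recovered 46% of genes changed 1.2-fold, 74% of those changed 1.5-fold and 96% of those changed 2-fold. Of its calls there, 9.77% were false. A gene that was not called may therefore still have changed, also by 1.5-fold. For Mmp10, which was not called, the 95% interval ran from −0.60 to 1.10 on the log2 scale.

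Members and lists were chosen with earlier results of these data known. Named by rule were called members, the 4 most abundant per family, the 3 uncalled members with the lowest p, Adam10, Adam17, Mmp2, Mmp9, Mmp14, Adamts1, each Timp, and called or most abundant genes of each list; other names were chosen after their values were seen. Coordinates are the table's; 52 of the 58 members match GENCODE M21 exactly. Promoters are RefSeq's (GRCm38.p6), found for 38 members. Protein sequence features were planned and are not analysed here. Some results on genes outside the 4 families are not reported here.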

Additional observations from a re-analysis of the deposited data

How the results depend on the processing

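The number of called genes, 235 in the reported fit, was 597 in DESeq2, 353 with library totals alone, 39 in limma on log2(FPKM + 1) or log2(FPKM + 0.5), 36 on log2(FPKM + 0.1), 22 with no filter, 142 with at least 10 counts in 3 libraries, 3 with the ribosomal share as a covariate and 68 to 233 with a library left out. That share did not overlap between the groups, so the covariate fit cannot separate it from the group. Called members, 1 in the reported fit, were 3 in DESeq2 (2 higher, 1 lower), 0 in limma on FPKM, with no filter and with the covariate, and 1 lower and 0 higher in limma on log2(TPM + 1). Each fit without a library called 1 member. The TPM fit called 328 genes in all, of which 308 were lower. The replicate block gave 394 genes and 1 member (Timp2, adjusted p = 0.000265). The labels share replicate numbers, but deviations correlated at 0.153, 0.178 and 0.0278 for numbers 1 to 3, so the numbers were not taken as pairs, although every library correlated best with its own number. Timp2, Mmp3, Mmp24, Adam9, Adam12, Adam19, Adamts1, Adamts4, Adamts6, Timp3, Hbegf and Tll1 kept their direction in all fits that held them. Members that were not called changed direction as follows. With TPM, where the median of all genes fell by 0.15, values were −0.0767 (Mmp14), −0.0735 (Mmp11), −0.0458 (Mmp10), −0.0603 (Mmp15), −0.15 (Adam10), −0.12 (Adam15), −0.0712 (Adam17), −0.15 (Adam8) and −0.0684 (Timp1). With the covariate they were −0.0454 (Mmp11), 0.0960 (Mmp13), −0.0517 (Adam10), −0.27 (Adam8) and −0.000269 (Timp1). With library totals alone and with limma on FPKM at pseudocounts of 1, 0.5 and 0.1 they were −0.0403, −0.0527, −0.0533 and −0.0538 (Adam10), −0.00902, −0.0236, −0.0240 and −0.0242 (Adam15), and −0.0455, −0.0507, −0.0596 and −0.0694 (Adam8). With the block Adam8 was −0.00933. Over the 6 fits without a library, ranges that crossed 0 were −0.0810 to 0.0656 (Mmp13), −0.0177 to 0.57 (Mmp28), −0.21 to 0.63 (Mmp10), −0.00892 to 0.0295 (Adam10), −0.0974 to 0.17 (Adam8), −0.13 to 0.0870 (Adamts5) and −0.16 to 0.000858 (Adamts12). The cause was not tested. The log2 ratios of family sums (Mmp −0.04, Adam −0.07, Adamts −0.10 and Timp 0.10 in FPKM) were −0.13, −0.17, −0.20 and −0.000879 in TPM, and 0.05, −0.00992, −0.05 and 0.12 in CPM. The FPKM filter, which is scaled by length, left out 35 members. With at least 10 counts in 3 libraries instead, 39 members were fitted and 1 was called. Counts of a few per library, as in Timp4 or Adamts13, are too few to compare.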
